A study of Homo sapiens with 12 samples.

Results

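The tissue inhibitors of metalloproteinases TIMP1, TIMP2, TIMP3 and TIMP4 and the membrane-anchored inhibitor RECK were described across 12 RNA-seq libraries. The members were the 5 genes with these names, out of 32152 genes listed, and all 5 were found. RNA came from 2 established triple-negative breast cancer cell lines with mesenchymal features, MDA-MB-231 and Hs-578T. In both lines there were 2 libraries of unmodified parental cells, 2 labelled ERK5-ko and 2 labelled MEK5DD. In the cells labelled ERK5-ko, MAPK7, the gene of the kinase ERK5, was cut with CRISPR/Cas9 and single cells were expanded as clones. The MDA-MB-231 knockout is 1 clone, and which Hs-578T clone was sequenced is not stated. MEK5DD denotes MEK5, the kinase that phosphorylates ERK5, in a constitutively active form (gene MAP2K5), and how the MEK5DD lines were made is not given in the sources used here. The labels add a p number, apparently the passage, of 29 and 30 for MDA-MB-231 parental, 7 and 8 for its ERK5-ko and 10 and 11 for its MEK5DD libraries, and of 83 and 84 for Hs-578T parental and 8 and 9 for both its ERK5-ko and its MEK5DD libraries. The p number and the genotype therefore cannot be told apart in any comparison with parental cells.

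Matrix metalloproteinases (MMPs) cut collagens and other matrix proteins, and the related ADAM and ADAMTS proteases shed receptors and cleave proteoglycans. TIMPs are small secreted proteins that block the catalytic site of these enzymes one to one. TIMP1 is a weak inhibitor of membrane-type MMPs. TIMP2 inhibits MMPs broadly and also bridges MMP14 and the proform of MMP2, which is how MMP2 is activated at the cell surface. TIMP3 is bound to the extracellular matrix and inhibits several ADAM and ADAMTS enzymes besides MMPs, TIMP4 has a restricted tissue distribution, and RECK is a glycosylphosphatidylinositol-anchored protein that restrains MMPs at the cell surface.

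All positions are of GRCh38. TIMP1 (ENSG00000102265.11) lies on chromosome X from 47582313 to 47586789, TIMP3 (ENSG00000100234.11) on chromosome 22 from 32801701 to 32863043, and both are on the plus strand. TIMP4 (ENSG00000157150.4) lies on the minus strand of chromosome 3 from 12153051 to 12159351. These 3 genes sit wholly inside the synapsin genes SYN1, SYN3 and SYN2, respectively, on the opposite strand. The synapsins were close to silent, with the highest RPKM of any library at 0.0608 for SYN1, 0.308 for SYN2 and 0.580 for SYN3, and the libraries were made with a stranded kit. TIMP4 shares 170 exonic bases with SYN2 exons, while TIMP1 and TIMP3 share 0 with those of their hosts. TIMP2 (ENSG00000035862.12, chromosome 17, 78852977 to 78925387) is on the minus strand and overlaps CEP295NL on the same strand by 32308 bases. RECK (ENSG00000122707.11, chromosome 9, 36036433 to 36124451, plus strand) overlaps no other listed gene.

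The upstream sequences of TIMP3 and TIMP1 are shown because TIMP3 had the largest fold change of the 5 genes against parental cells and TIMP1 the highest RPKM. RefSeq promoter windows of 300 bases (GRCh38.p14) were matched for 4 of the 5 genes, TIMP1, TIMP3, TIMP4 and RECK. Only the stretch before the first annotated exon of GENCODE 29 is printed, 5′ to 3′ on the gene's strand, with each GGGCGG or its reverse complement, the core of an Sp1 site, in capitals. The windows of TIMP4 (chr3:12158863-12159162) and RECK (chr9:36036663-36036962) lie in annotated exons and are not printed.
TIMP3, chr22:32801455-32801700, 246 bases: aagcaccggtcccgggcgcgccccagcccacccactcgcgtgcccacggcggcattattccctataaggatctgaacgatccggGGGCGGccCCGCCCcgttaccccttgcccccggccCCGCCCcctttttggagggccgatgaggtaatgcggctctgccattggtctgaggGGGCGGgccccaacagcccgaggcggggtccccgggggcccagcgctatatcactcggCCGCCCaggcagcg
TIMP1, chrX:47582186-47582312, 127 bases: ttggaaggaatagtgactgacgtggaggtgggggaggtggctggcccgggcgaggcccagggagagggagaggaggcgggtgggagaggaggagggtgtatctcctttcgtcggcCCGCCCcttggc

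Read on both strands of the whole window, GGGCGG matched 5 times for TIMP3, 3 times for RECK, 2 times for TIMP1 and 1 time for TIMP4, and 44.95% of all 35116 windows hold it. TIMP3 also had the window richest in CpG, with 31 against 22 for RECK, 16 for TIMP1, 12 for TIMP4 and a median of 14 over all windows. The AP-1 motif TGANTCA (in 7.71% of windows), the MEF2 motif, CTA and TAG 4 bases apart (2.73%), and the TATA motif TATAAA (11.53%) matched in none of the 4 windows. TGAGTAA, a variant AP-1 site searched after the window had been read, matched once in the TIMP1 window, 101 bases before the RefSeq start and downstream of the printed stretch, and is in 2.57% of all windows. The ETS core AGGAAG matched once each in TIMP1 and TIMP4 and is in 33.65% of windows. The motifs share no letters of a match with one another in these windows. A match of letters is a description and not a bound site.

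Library totals recovered from the values lay between 20248162 and 27791195 reads, of which 92.0% to 94.5% fell on the listed genes. Libraries labelled ERK5-ko did not have less MAPK7 RNA than parental cells, at RPKM 16.3 to 18.1 against 13.3 to 16.0. CRISPR cuts need not lower the RNA, so directions given for these libraries refer to their labels. By Western blot, the paper reports a strong loss of ERK5 protein in the knockout cells of both lines, which RNA does not measure. MAP2K5 was at RPKM 184 and 188 in MDA-MB-231 libraries labelled MEK5DD against 12.9 and 13.6 in parental cells. In Hs-578T the same comparison was 21.3 and 23.8 against 14.6 and 16.9. The markers were those of mesenchymal carcinoma cells, with VIM at RPKM 1598 to 4067. ESR1 and PGR (at most 0.348) were close to 0, as were the leukocyte marker PTPRC (at most 0.396) and the endothelial marker CDH5 (at most 0.0259), while ERBB2 was at 27.8 to 56.8. The endothelial marker PECAM1 reached 6.48 in Hs-578T, and the epithelial marker EPCAM was at 7.08 to 25.7 in MDA-MB-231 and at most 0.0862 in Hs-578T. Replicates differed most in Hs-578T MEK5DD and Hs-578T parental cells, with a chi-square per degree of freedom of 42.2 and 30.7 against 2.82 to 8.92 in the other groups.

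RPKM is the number of reads on a gene scaled to the length of its gene model and to the total reads of the library. Levels of different genes can be set beside each other only as far as these lengths hold. The model lengths were 706 bases for TIMP1, 3242 for TIMP2 and 4598 for TIMP3. GENCODE 29 has 1541, 5633 and 4603 exonic bases for them. The order of genes, shares of a sum and ratios between genes therefore depend on the lengths used, and other lengths were not tried. With these lengths, TIMP1 had the highest RPKM of the 5 genes in each of the 12 libraries. Its RPKM was 554 and 590.3 in MDA-MB-231 parental, 674 and 746 in ERK5-ko and 444 and 454 in MEK5DD libraries. In Hs-578T it was 317 and 285 in parental, 262 and 249 in ERK5-ko and 435 and 325 in MEK5DD libraries. The 6 MDA-MB-231 libraries thus all lay above the 6 Hs-578T libraries, and the 3 groups of each line did not overlap. Here and below, the share of all genes whose groups separate in this way was not counted. In the main limma fit given below, TIMP1 did not pass against parental cells for either label in either line.

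TIMP2 was at RPKM 258 and 259 in MDA-MB-231 parental, 285 and 260.2 in ERK5-ko and 158 and 156 in MEK5DD libraries. In Hs-578T, TIMP2 was at 221 and 266 in parental, 186 and 168 in ERK5-ko and 199 and 235 in MEK5DD libraries. The lowest group mean was that of MDA-MB-231 MEK5DD, 157 ± 1.45 (SD, n = 2), and the parental groups of the lines overlapped. TIMP2 was thus the member whose parental levels were closest between the lines.

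TIMP3 had the widest range of the 3 abundant TIMP genes as a ratio of highest to lowest level, from RPKM 23.2 to 312, while TIMP1 spanned more RPKM units. It was at 107 and 108 in MDA-MB-231 parental, at 104 and 103 in ERK5-ko and at 24.0 and 23.2 in MEK5DD libraries. In Hs-578T the values were 199 and 237 in parental, 213 and 201 in ERK5-ko and 306 and 312 in MEK5DD libraries. MEK5DD libraries therefore held both the lowest and the highest group mean of TIMP3, 23.6 ± 0.592 (SD, n = 2) in MDA-MB-231 and 309 ± 4.64 (SD, n = 2) in Hs-578T. The Hs-578T parental and ERK5-ko groups overlapped.

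TIMP4 was scarce in MDA-MB-231, at RPKM 1.57 and 1.66 (64 and 76 reads) in parental, 1.59 and 1.95 (59 and 80 reads) in ERK5-ko and 0.607 and 0.592 (24 and 27 reads) in MEK5DD libraries. In Hs-578T a single read was counted, in parental replicate 2, and the other 5 libraries had 0 reads. A count of 0 allows up to 3 reads per library, counting error only, so TIMP4 was at the floor throughout Hs-578T and no change within that line is given for it. It passed the filter on low values through its MDA-MB-231 libraries alone.

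RECK was low in every library, between 262 and 541 reads. Its RPKM was 5.37 and 4.91 in MDA-MB-231 parental, 4.79 and 4.09 in ERK5-ko and 4.38 and 4.70 in MEK5DD libraries. In Hs-578T it was 6.98 and 8.73 in parental, 6.41 and 7.34 in ERK5-ko and 10.4 and 9.94 in MEK5DD libraries. All Hs-578T libraries were above all MDA-MB-231 libraries, the parental and ERK5-ko groups of Hs-578T overlapped, and so did the ERK5-ko and MEK5DD groups of MDA-MB-231.

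**Figure D1:**
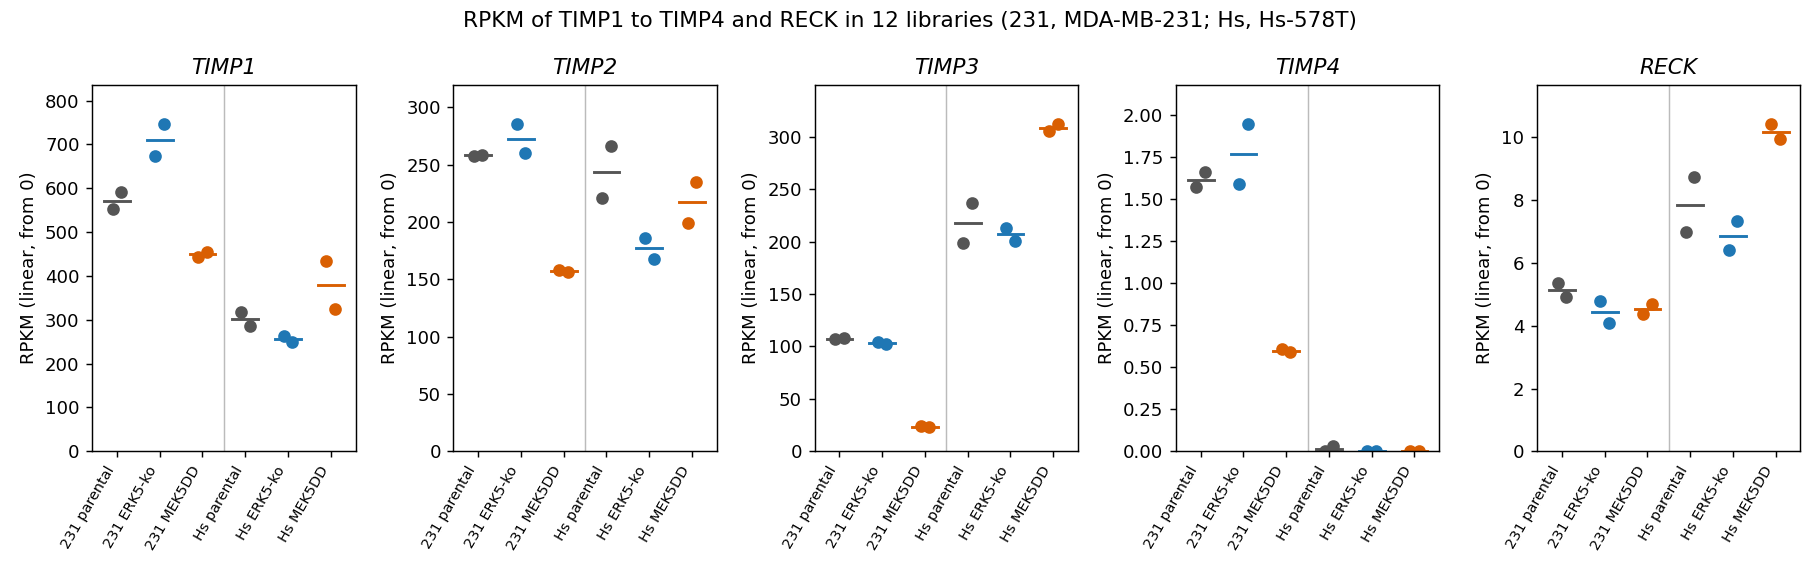
RPKM of each gene (linear y axis from 0, one panel per gene) in each of the 12 libraries (points) with the mean of each group of 2 (bars), by cell line and label. TIMP3 falls to about 24 in MDA-MB-231 MEK5DD and is highest, near 309, in Hs-578T MEK5DD, and TIMP4 is seen in MDA-MB-231 only.

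Among the 13737 protein-coding genes tested, TIMP1 ranked 126 by mean RPKM in MDA-MB-231 parental cells and 353 in Hs-578T parental cells. TIMP2 ranked 406 and 457. TIMP3 ranked 1281 in MDA-MB-231 parental, 5315 in MDA-MB-231 MEK5DD and 519 in Hs-578T parental cells. RECK ranked 9791 and 8512, and TIMP4 ranked 11415 in MDA-MB-231 parental cells.

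The RPKM of the 4 TIMP genes summed to 939 ± 27.4 (SD, n = 2) in MDA-MB-231 parental, 1088 ± 32.5 in ERK5-ko and 630.3 ± 4.64 in MEK5DD libraries. In Hs-578T the sums were 762 ± 36.0 in parental, 639 ± 30.6 in ERK5-ko and 906 ± 48.0 in MEK5DD libraries. The order of the 3 groups was thus opposite in the lines. MDA-MB-231 had ERK5-ko above parental above MEK5DD, Hs-578T had the reverse, and groups of a line did not overlap. With 2 libraries per group this order was not tested, nor was it set against the order of other genes. TIMP1, the largest part of the sum, did not pass for ERK5-ko against parental cells of either line (limma, adjusted p = 0.130 and 0.175). Of the other TIMP genes, only TIMP2 passed for ERK5-ko, as lower in Hs-578T (adjusted p = 0.0087). TIMP3 made up 11.4% ± 0.244 of this sum in MDA-MB-231 parental, 9.51% ± 0.384 in ERK5-ko and 3.75% ± 0.122 in MEK5DD libraries. In Hs-578T its share was 28.5% ± 2.19, 32.4% ± 0.257 and 34.2% ± 2.32 in the same order. TIMP1 held 60.9% to 71.2% of the sum as a group mean in MDA-MB-231 and 39.6% to 41.7% in Hs-578T.

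**Figure D2:**
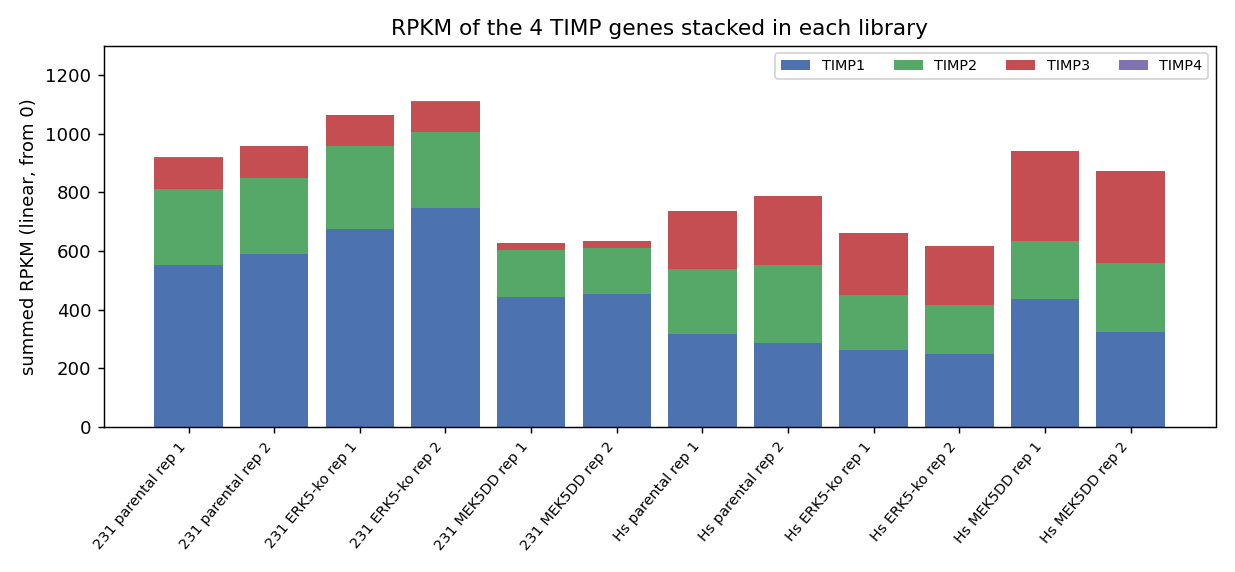
RPKM of TIMP1, TIMP2, TIMP3 and TIMP4 stacked in each of the 12 libraries (linear y axis from 0). The TIMP3 segment is thinnest in the MDA-MB-231 MEK5DD libraries, 3.75% of the sum, and thickest in Hs-578T, 28.5% to 34.2%, and TIMP4 is too scarce to be seen.

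To ask how the inhibitors differ between the lines at rest, Hs-578T parental was compared with MDA-MB-231 parental cells. Each fold change below is a log2 difference of RPKM + 0.5 from a limma fit over all tested genes, and a gene passed at a Benjamini-Hochberg adjusted p under 0.05. Hs-578T had less TIMP1 RNA and more TIMP3 and RECK RNA, so 3 of the 4 members other than TIMP4 passed, where 31.3% of all tested genes passed as higher and 46% as lower. The log2 fold change was -0.93 for TIMP1 (standard error 0.130, adjusted p = 4.34e-05), 1.01 for TIMP3 (standard error 0.0923, adjusted p = 1.06e-06) and 0.56 for RECK (standard error 0.130, adjusted p = 0.00191). TIMP2 differed by -0.09 (95% confidence interval -0.34 to 0.16, adjusted p = 0.474). TIMP4 was at least 18.4-fold lower in Hs-578T, taking the floor of 3 reads per library, and it was not counted because it had passed the filter through MDA-MB-231 alone. The median of all tested genes was shifted by -0.19 in this comparison, and relative to that median TIMP1 was at -0.73, TIMP2 at 0.10, TIMP3 at 1.20 and RECK at 0.75. With median-ratio scaling TIMP2 was at 0.14 in place of -0.09, and it did not pass under any scaling tried. In bulk RNA, fewer cells of a type and less RNA per cell cannot be told apart.

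MEK5DD was compared with parental cells to see what active MEK5 goes along with. In MDA-MB-231 the 3 inhibitors TIMP2, TIMP3 and TIMP4 were lower, 3 of 5 members, where 23.8% of tested genes passed as lower and 17.5% as higher. TIMP3 fell by 2.16 on the log2 scale (standard error 0.0923, adjusted p = 1.22e-08), to 0.223 of the parental level (95% confidence interval 0.194 to 0.257). TIMP4 fell by 0.95 (standard error 0.104, adjusted p = 2.28e-05), which understates the change of so low a gene, since limma voom on the recovered reads gave -1.42. TIMP2 fell by 0.72 (standard error 0.114, adjusted p = 0.000397). With any single library left out, the log2 fold change of TIMP3 stayed between -2.19 and -2.14, of TIMP4 between -0.98 and -0.92 and of TIMP2 between -0.72 and -0.71. TIMP1 differed by -0.35 (95% confidence interval -0.63 to -0.06, adjusted p = 0.0511), and it passed under 5 of 15 alternatives, the replicate block (adjusted p = 0.0111), the stricter filter, quantile normalization, one line fitted alone and limma voom. RECK differed by -0.16 (95% confidence interval -0.45 to 0.12, adjusted p = 0.353). Of the 3 genes that passed, TIMP3 alone met the fold threshold of 0.5 on the scale of RPKM + 0.5. This threshold was met by 6.31% of tested genes. TIMP4 was at a fold of 0.519 on that scale, with a mean RPKM of 0.599 in MEK5DD and 1.62 in parental libraries before 0.5 was added. Of 8 cell type markers, 4 were tested, of which VIM was higher by 1.04 (adjusted p = 4.01e-05), EPCAM was lower at -1.30 (adjusted p = 2.24e-06), and ERBB2 and PECAM1 were lower too. Their part in the changes of the inhibitors was not tested.

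In Hs-578T, MEK5DD libraries had more TIMP3 than parental libraries, and no other of the 4 members compared passed, where 6.44% of tested genes passed as higher and 17% as lower. TIMP3 rose by 0.51 on the log2 scale (standard error 0.0923, adjusted p = 0.00274), a fold of 1.42 (95% confidence interval 1.24 to 1.64). With the 6 Hs-578T libraries fitted alone, its adjusted p was 0.0655. TIMP1 differed by 0.32 (95% confidence interval 0.04 to 0.61, adjusted p = 0.0996), RECK by 0.36 (0.08 to 0.65, adjusted p = 0.0663) and TIMP2 by -0.16 (-0.41 to 0.09, adjusted p = 0.342). With the replicate block the adjusted p was 0.0261 for TIMP1 and 0.0419 for RECK, so 3 of 4 members then passed as higher, where 8.87% of tested genes passed as higher and 22.2% as lower in the blocked fit. RECK also passed with median-ratio scaling, quantile normalization and limma voom. TIMP1 rested on which MEK5DD library was kept, at 0.53 (adjusted p = 0.00389) without replicate 2. RECK was at 0.51 (adjusted p = 0.0309) without parental replicate 2. Of the 4 tested markers, 2 were lower here, ERBB2 and PECAM1, the latter at -0.84 (adjusted p = 0.000469), while the other endothelial marker, CDH5, had at most 1 read in any of these libraries.

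The MEK5DD effect was then compared between the lines in 1 contrast. All 4 members that could be compared had a more positive effect in Hs-578T, where 18.2% of tested genes passed in that direction and 21.3% in the other. The difference was largest for TIMP3, 2.67 on the log2 scale (standard error 0.131, adjusted p = 1.04e-07), with opposite signs in the lines, and it stayed between 2.54 and 2.80 with any library left out. It was 0.67 for TIMP1 (adjusted p = 0.0136), 0.55 for TIMP2 (adjusted p = 0.0184) and 0.52 for RECK (adjusted p = 0.0407). These 3 differences depended on single libraries, and that of RECK also on the filter, with an adjusted p of 0.0593 without it. TIMP1 was at an adjusted p of 0.0550 without MDA-MB-231 parental replicate 2. TIMP2 was at 0.0544 to 0.0620 without any one of MDA-MB-231 parental replicates 1 and 2, MDA-MB-231 MEK5DD replicates 1 and 2 and Hs-578T parental replicate 1. RECK was at 0.0672 to 0.136 without any one of those 5 libraries or Hs-578T MEK5DD replicate 1.

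**Figure D3:**
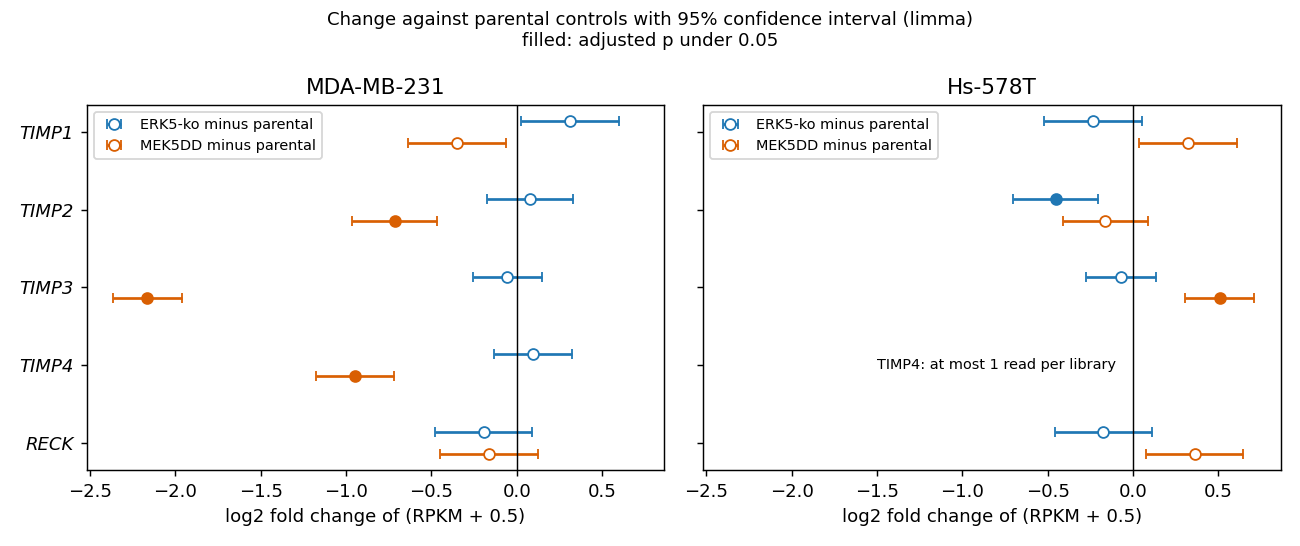
Log2 fold change of RPKM + 0.5 against parental cells (x axis) with its 95% confidence interval from limma (bars) for each gene, in MDA-MB-231 (left) and Hs-578T (right), for ERK5-ko (blue) and MEK5DD (orange). Filled points passed at an adjusted p under 0.05, and TIMP3 with MEK5DD stands at -2.16 in MDA-MB-231 and at 0.51 in Hs-578T.

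Libraries labelled ERK5-ko were compared with the same parental libraries as those labelled MEK5DD. In MDA-MB-231, 0 of 5 members passed with limma, where 6.91% of tested genes passed as higher and 10.4% as lower. At an unadjusted p under 0.05 there was 1, TIMP1, and limma voom on the recovered reads passed 0. TIMP1 differed by 0.31 (95% confidence interval 0.02 to 0.60, adjusted p = 0.130), and both ERK5-ko libraries were above both parental libraries. With the replicate block the adjusted p of TIMP1 was 0.0360, so 1 of 5 members passed, where 10.1% of tested genes passed as higher and 14.9% as lower in the blocked fit, and with the 6 MDA-MB-231 libraries fitted alone it was 0.0293. TIMP2 differed by 0.08 (-0.17 to 0.33), TIMP3 by -0.06 (-0.26 to 0.15), TIMP4 by 0.09 (-0.13 to 0.32) and RECK by -0.19 (-0.48 to 0.09).

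In Hs-578T, TIMP2 was lower in libraries labelled ERK5-ko, and it was 1 of 4 members to pass, where 19.7% of tested genes passed as lower and 19.7% as higher. TIMP2 fell by 0.45 (standard error 0.114, adjusted p = 0.0087), to 0.730 of the parental level. This call was lost without parental replicate 2 (log2 fold change -0.32, adjusted p = 0.0632), without ERK5-ko replicate 2 (-0.38, adjusted p = 0.0866) and with the 6 Hs-578T libraries fitted alone (adjusted p = 0.0748). TIMP1 differed by -0.24 (-0.52 to 0.05, adjusted p = 0.175), TIMP3 by -0.07 (-0.27 to 0.13, adjusted p = 0.578) and RECK by -0.18 (-0.46 to 0.11, adjusted p = 0.307). TIMP3 was the member whose ERK5-ko values stayed nearest to parental in both lines.

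The ERK5-ko effect differed between the lines for TIMP1, by -0.55 (adjusted p = 0.0352), and TIMP2, by -0.53 (adjusted p = 0.0227), both lower in Hs-578T. Without the filter and with quantile normalization, TIMP1 was at an adjusted p of 0.0566 and 0.0517. These are 2 of 4 members, where 18.3% of tested genes passed in that direction and 21.5% in the other. For TIMP3 the difference was -0.01 (95% confidence interval -0.30 to 0.27) and for RECK 0.02 (-0.38 to 0.42). TIMP1 was at an adjusted p of 0.0661 to 0.123 without any one of MDA-MB-231 parental replicates 1 and 2, MDA-MB-231 ERK5-ko replicate 2, Hs-578T parental replicate 1 and Hs-578T ERK5-ko replicates 1 and 2. TIMP2 was at 0.0643 to 0.0945 without any one of MDA-MB-231 parental replicates 1 and 2, MDA-MB-231 ERK5-ko replicate 1, Hs-578T parental replicate 2 and Hs-578T ERK5-ko replicate 2.

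ERK5-ko and MEK5DD libraries were also set against each other, which in Hs-578T compares groups with the same p numbers. In MDA-MB-231 all 4 TIMP genes were higher in ERK5-ko than in MEK5DD libraries, 4 of 5 members, where 27.1% of tested genes passed as higher and 27.9% as lower. The log2 fold change was 0.66 for TIMP1 (adjusted p = 0.00112), 0.79 for TIMP2 (adjusted p = 0.000117), 2.11 for TIMP3 (adjusted p = 7.57e-09) and 1.04 for TIMP4 (adjusted p = 6.46e-06), each above the fold threshold of 1.5, which 17.5% of tested genes met as higher. RECK differed by -0.03 (-0.32 to 0.25, adjusted p = 0.873). In Hs-578T the direction was opposite, with 3 of 4 members lower in ERK5-ko libraries, where 19.2% of tested genes passed as lower and 30.7% as higher. TIMP1 was at -0.56 (adjusted p = 0.00443), TIMP3 at -0.58 (adjusted p = 0.000369) and RECK at -0.54 (adjusted p = 0.00528). TIMP2 was at -0.29 (adjusted p = 0.0521), with the replicate block at an adjusted p of 0.0322, and it also passed with median-ratio scaling and limma voom. Without MEK5DD replicate 1 it was at -0.41 (adjusted p = 0.0175). RECK was at -0.45 with an adjusted p just above 0.05 without ERK5-ko replicate 1.

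TIMP2 and CEP295NL, a gene that overlaps it on the same strand, moved alike. CEP295NL was at RPKM 18.0 to 34.6, and its RPKM over that of TIMP2 in the same library averaged 0.109 to 0.122 in the 6 groups. CEP295NL passed in each comparison in which TIMP2 did, at -0.58 (adjusted p = 0.00132) for MDA-MB-231 MEK5DD and at -0.34 (adjusted p = 0.0289) for Hs-578T ERK5-ko against parental cells on the log2 scale. How reads in the overlap were assigned is not given in the sources used here, and the part of shared reads in either gene was not tested.

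The proteases that TIMPs inhibit were described from lists of 17 soluble MMPs, 6 membrane-type MMPs and 13 ADAM and ADAMTS genes, of which 7, 5 and 13 were expressed enough to be tested. In MDA-MB-231 MEK5DD, the comparison in which TIMP2, TIMP3 and TIMP4 fell, 3 of 7 soluble MMPs were higher and 3 lower. Their median log2 fold change was -0.04 against -0.01 over all tested genes, of which 17.5% passed as higher and 23.8% as lower. MMP1, the interstitial collagenase, was at RPKM 132 and 124 against 1.47 and 1.23 in parental cells, higher by 6.12 on the log2 scale (adjusted p = 2.87e-10). MMP3, or stromelysin-1, named after its values were seen, was at RPKM 2.14 and 2.27 against 0.0851 and 0.114 in parental libraries, which had 2 and 3 reads. MMP11, or stromelysin-3, was lower, at -1.66 (adjusted p = 2.09e-06). Of 5 membrane-type MMPs, 2 were higher and 1 lower (median 0.24), with MMP16 at 1.62 (adjusted p = 0.000188) and MMP24 at -1.30 (adjusted p = 1.1e-05). Of 13 ADAM and ADAMTS genes, 2 were higher and 3 lower (median -0.05). ADAMTS1, an aggrecan-cleaving enzyme, rose by 2.79 (adjusted p = 3.45e-08), while ADAM28 and ADAM8 were at -2.86 (adjusted p = 1.02e-07) and -1.46 (adjusted p = 1.43e-05).

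In Hs-578T MEK5DD, where TIMP3 rose, 1 of 7 soluble MMPs passed as higher and 0 as lower, 0 of 5 membrane-type MMPs as higher and 1 as lower, and 1 of 13 ADAM and ADAMTS genes as higher and 3 as lower. The medians were 0.01, -0.26 and -0.11 against -0.08 over all tested genes, of which 6.44% passed as higher and 17% as lower. No list gene with a mean RPKM of at least 1 met the fold thresholds. In Hs-578T ERK5-ko, where TIMP2 fell, 4 of 7 soluble MMPs were lower and 2 higher (median -0.68 against 0.01 over all tested genes). Of all tested genes, 19.7% passed as lower and 19.7% as higher. MMP11 fell by 2.60 (adjusted p = 1.5e-07), and MMP14, the membrane-type enzyme that acts together with TIMP2, fell by 1.14 (adjusted p = 1.4e-05). MMP16 (0.74, adjusted p = 0.0268), ADAMTS1 (1.35, adjusted p = 2.41e-05), ADAM28 (0.71, adjusted p = 0.00474) and MMP1 (0.61, adjusted p = 0.0119, at an RPKM of at most 0.569) were higher. MMP3 was at RPKM 2.54 ± 0.762 (SD, n = 2) against 0.288 ± 0.0484 in parental libraries, higher by 1.93 (adjusted p = 1.09e-05). Membrane-type MMPs gave 1 higher and 2 lower of 5, and ADAM and ADAMTS genes 4 higher and 1 lower of 13. In MDA-MB-231 ERK5-ko, where 0 members passed, 0 of 7 soluble MMPs were higher and 2 lower. Of 5 membrane-type MMPs, 2 were higher and 1 lower, and of 13 ADAM and ADAMTS genes, 1 was higher and 2 lower. Of all tested genes, 6.91% passed as higher and 10.4% as lower. The lower membrane-type MMP was MMP14, at RPKM 268 ± 1.76 (SD, n = 2) against 439 ± 19.5 in parental libraries (limma, adjusted p = 0.00116). MMP24 rose by 2.57 (adjusted p = 7.63e-07) and MMP16 by 1.11 (adjusted p = 0.00734), ADAM28 rose by 0.78 (adjusted p = 0.00673), and ADAM19 was at -1.30 (adjusted p = 0.000245). ADAM12 also passed as lower, with 0 and 2 reads against 41 and 44 in parental libraries, and no fold is given for it because both ERK5-ko libraries were within the floor of 3 reads.

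**Figure D4:**
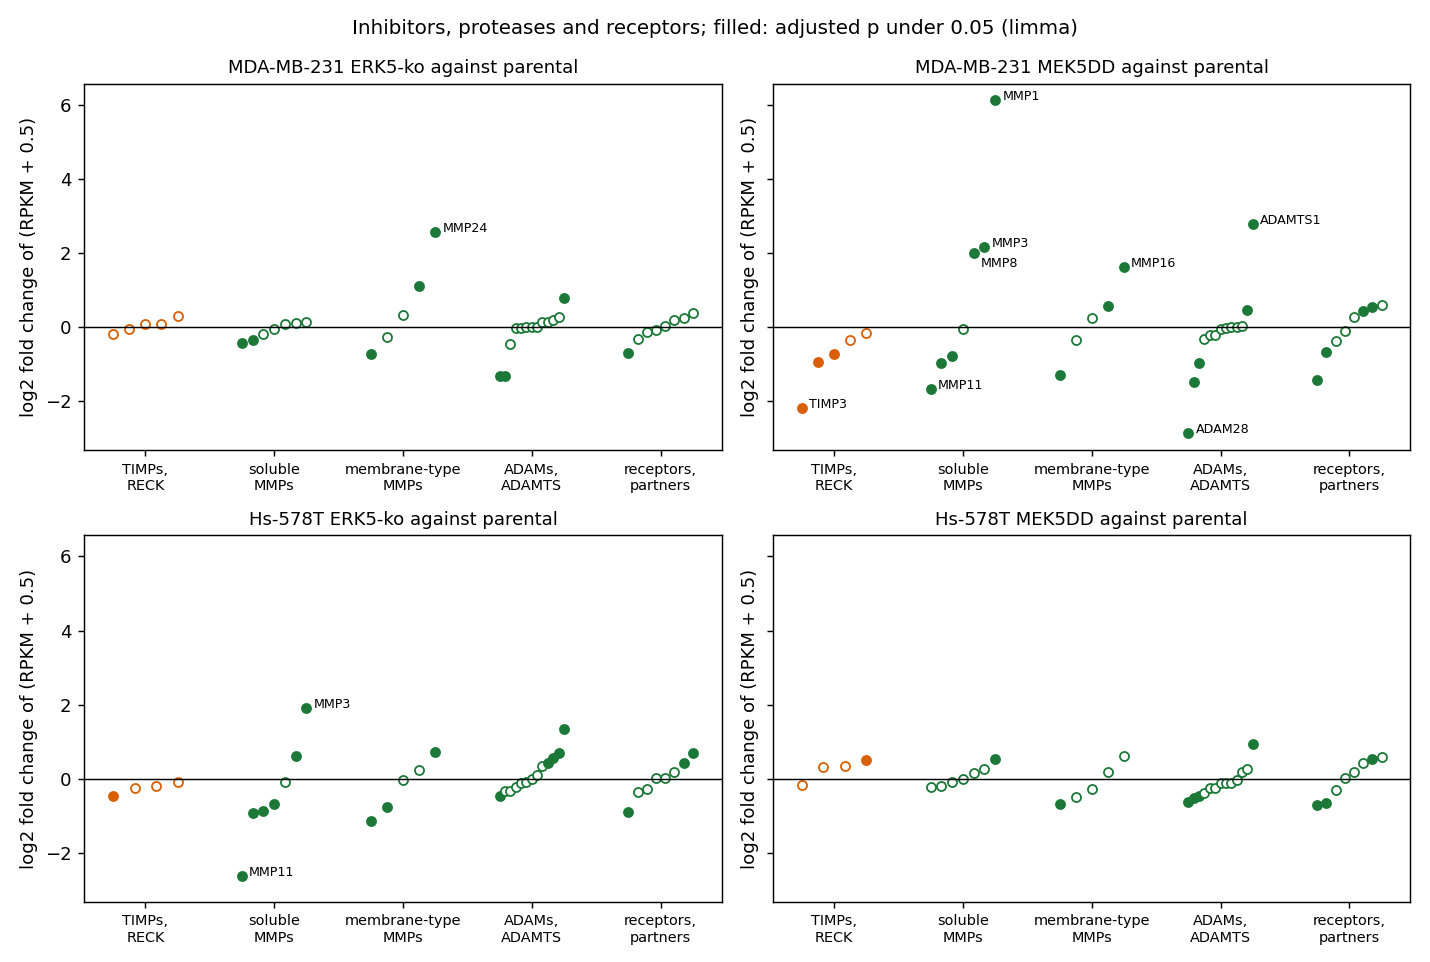
Log2 fold change of RPKM + 0.5 against parental cells (y axis) for the tested TIMP genes and RECK (orange) and for tested soluble MMPs, membrane-type MMPs, ADAM and ADAMTS genes and TIMP or RECK receptors and partners (green), one panel per comparison. Filled points passed at an adjusted p under 0.05, and genes beyond 1.5 in either direction are named, among them TIMP3 at -2.16 and MMP1 at 6.12 in MDA-MB-231 MEK5DD.

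Of 9 receptors and partners of TIMPs and RECK, 8 were tested, and the shares of all tested genes that passed in each comparison are those given above. CD63, a TIMP1-binding tetraspanin, was at RPKM 328 to 855, ITGB1 at 1021 to 1875 and LRP1, an endocytic receptor that takes up TIMPs, at 15.4 to 191. In MDA-MB-231 MEK5DD, 2 were higher and 2 lower, and EFEMP1, a fibulin that binds TIMP3, fell by 1.41 (adjusted p = 1.23e-06). EFEMP1 was at RPKM 244 and 236 in parental and 89.5 and 90.2 in MEK5DD libraries, the same direction as TIMP3. In Hs-578T MEK5DD, 1 was higher and 2 lower, and EFEMP1 was among those lower, against the direction of TIMP3 there. In Hs-578T ERK5-ko, 2 were higher and 1 lower, with CD44, a hyaluronan receptor, up by 0.70 (adjusted p = 0.000275). In MDA-MB-231 ERK5-ko 0 were higher and 1, KDR, was lower. ADGRA2, the receptor that works with RECK in Wnt7 signalling, was at most at RPKM 0.164 in MDA-MB-231 and at 16.2 to 52.0 in Hs-578T, the line with more RECK.

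Levels of enzyme and inhibitor were set beside each other within a library, for pairs chosen after their values were seen and with no test. MMP14 over TIMP2 was 1.70 ± 0.0721 (SD, n = 2) in MDA-MB-231 parental, 0.984 ± 0.0574 in ERK5-ko and 4.12 ± 0.186 in MEK5DD libraries. In Hs-578T the ratio was 1.67 ± 0.00268 in parental, 1.04 ± 0.00608 in ERK5-ko and 2.13 ± 0.132 in MEK5DD libraries. The parental lines were thus close, and the groups of each line followed the same order without overlap, which was not set against other pairs of genes. Against parental cells on the log2 scale, MMP14 and TIMP2 were at -0.71 and 0.08 in MDA-MB-231 ERK5-ko. In MDA-MB-231 MEK5DD they were at 0.56 and -0.72. The values of MMP14 and TIMP2 in Hs-578T were -1.14 and -0.45 in ERK5-ko and 0.19 and -0.16 in MEK5DD. MMP2, the enzyme activated by this pair, was at RPKM 0.0960 to 1.10 in MDA-MB-231 and at 418 to 839 in Hs-578T. Against parental cells, MMP2 was at -0.86 in Hs-578T ERK5-ko (limma, adjusted p = 0.000453) and -0.19 in Hs-578T MEK5DD (adjusted p = 0.338). In MDA-MB-231 it was at 0.15 in ERK5-ko (adjusted p = 0.502) and -0.97 in MEK5DD (adjusted p = 0.000135). The MEK5DD value there rests on 4 and 13 reads against 36 and 39 in parental libraries.

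ADAM17, a sheddase of TNF and EGFR ligands that TIMP3 inhibits, was at RPKM 20.3 to 34.1. Its ratio to TIMP3 was 0.306 ± 0.00495 in MDA-MB-231 parental, 0.314 ± 0.0178 in ERK5-ko and 1.20 ± 0.00695 in MEK5DD libraries. In Hs-578T it was 0.147 ± 0.00399, 0.112 ± 0.00733 and 0.0717 ± 0.00750 in the same order. ADAM10 over TIMP3 was 1.95 ± 0.137, 2.23 ± 0.271 and 4.55 ± 0.126 in MDA-MB-231 and 0.493 ± 0.00176, 0.700 ± 0.0910 and 0.254 ± 0.0465 in Hs-578T. MDA-MB-231 MEK5DD was thus the group with the most ADAM17 and ADAM10 RNA per TIMP3 RNA. The proteases themselves were not higher there. Against parental cells ADAM10 fell by 0.96 on the log2 scale (limma, adjusted p = 0.000267). ADAM17 differed by -0.21 (adjusted p = 0.138), while TIMP3 fell by 2.16.

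The genes most like each member were found by Pearson's r over the 12 libraries, after the mean of the line was taken from log2(RPKM + 0.5), and the points share lines and replicate pairs. Those nearest to TIMP3 were SLC12A7 (0.995), FECH (0.991) and DYM (0.991). GTF2I, which has near-identical copies that can share its reads, and WASL (both 0.990) and WWC3 (0.981) were nearest to TIMP2. For TIMP1 they were the entry listed as TMBIM4 (0.977), S100A6 (0.972) and DYNLT1 (0.972), for TIMP4, which varied in MDA-MB-231 only, ASB2 (0.992), XKR8 (0.990) and TNFRSF1B (0.990), and for RECK RALA (0.921), ETV1 (0.920) and CDADC1 (0.903). Among the members that varied in both lines, TIMP2 and TIMP3 were most alike (0.862), whereas RECK was at most at 0.409 with any TIMP gene. Against parental cells, TIMP2 and TIMP3 both fell in MDA-MB-231 MEK5DD (-0.72 and -2.16 on the log2 scale). They were at -0.16 and 0.51 in Hs-578T MEK5DD. In ERK5-ko they were at 0.08 and -0.06 in MDA-MB-231 and at -0.45 and -0.07 in Hs-578T. How far a single group carries the r was not tested.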

How the data were processed

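RNA of the 12 libraries was sequenced after a stranded mRNA preparation from cells at 70% confluence. The authors deposited RPKM values, reads per gene scaled to gene model length and library total. The submitters' processing notes name bcl2fastq, Trimmomatic 0.32, TopHat2 2.1.1, R 3.3.1, DESeq2 1.12.4 and GRCh38. The counting step is not given in the sources used here.

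Samples were grouped by line and label. Whole reads were recovered from the RPKM steps for all 32152 genes (tolerance 0.01 of a read), and with totals 1% off 0 of 500 control genes gave whole reads. Coding genes that reached RPKM 0.5 in 2 or more libraries (13737) were fitted on the log2(RPKM + 0.5) scale by limma 3.58.1 (R 4.3.3). The fit had 6 group means, 6 residual degrees of freedom and a variance trend, and p values were Benjamini-Hochberg adjusted within each of 9 comparisons. Passing meant an adjusted p under 0.05, and the fold thresholds were above 1.5 or below 0.5. These are the thresholds of the paper. A fall must be larger than a rise to meet them, so meeting them depends on which group is written first. TIMP4 was left out of every comparison with Hs-578T libraries, so 4 members were compared there. On simulated data for MDA-MB-231 MEK5DD against parental (13737 genes, 200 changed), 91% of genes changed by a log2 fold of 1 and 98% of those changed by 2 passed, as did 7 of 13537 unchanged genes. Positions are those deposited, and exons are of GENCODE 29, which holds 31584 of the 32152 gene identifiers. Sequences are from RefSeq. Tables and figures were made in Python 3.11.15 (pandas 2.3.3, numpy 2.4.6, matplotlib 3.10.9).

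The members and lists were chosen with earlier results of these data known. Named list genes were past the fold thresholds and had a mean RPKM of at least 1. At most 4 were taken per list and comparison, by size of change. EFEMP1 in Hs-578T, MMP14 outside Hs-578T ERK5-ko, CD63, ITGB1, LRP1, ADGRA2, KDR, MMP2, MMP3, ADAM10, ADAM17 and CEP295NL were named after their values were seen. No source says that replicates were separate cultures, so p values measure the spread between these libraries, which may be technical. Replicates share numbers within a line. Deviations of same-numbered libraries from their group means correlated at 0.107 to 0.541 over the 6 pairs of groups. The main fit did not use this pairing, which comes from the data. The pairing entered only the replicate block, an alternative fit. The alternatives changed the pseudocount, filter, scaling, gene types, libraries in the fit, variance trend, fold thresholds and test, and blocked the replicate number.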

Additional observations from a re-analysis of the deposited data

Results flagged for a closer look

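The effects below differed between the 2 lines by a contrast of contrasts over all tested genes (limma, adjusted within the comparison). The MEK5DD effect was more positive in Hs-578T than in MDA-MB-231 by 2.67 on the log2 scale for TIMP3 (adjusted p = 1.04e-07), which was lower in both MEK5DD libraries of MDA-MB-231 and higher in both of Hs-578T than in each parental library. It was also more positive by 0.67 for TIMP1 (adjusted p = 0.0136), by 0.55 for TIMP2 (adjusted p = 0.0184) and by 0.52 for RECK (adjusted p = 0.0407). The ERK5-ko effect differed by -0.55 for TIMP1 (adjusted p = 0.0352) and by -0.53 for TIMP2 (adjusted p = 0.0227), more negative in Hs-578T. Except for that of TIMP3, these differences depended on single libraries, as given above. For MEK5DD, 18.2% of tested genes passed as more positive in Hs-578T and 21.3% as more negative. For ERK5-ko the shares were 21.5% and 18.3%. MAP2K5, which checks the MEK5DD label, rose far more in MDA-MB-231 (log2 fold change 3.77) than in Hs-578T (0.50; difference -3.26, adjusted p = 4.84e-08), and its part in these differences was not tested.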

How the results depend on the processing

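With 2 libraries per group, few clones and p numbers that differ from parental cells, small changes were not settled by these data, and RECK and TIMP4 rest on at most 541 reads. Over 602 values of members under the alternatives, 537 kept their direction and their side of the threshold, 31 lost and 18 gained a passing adjusted p, and 16 turned sign, none of which had passed. The causes were not tested. TIMP3 in MDA-MB-231 MEK5DD against parental lay between -2.19 and -2.12 under all 15 alternatives.

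With the fold thresholds, the members passing numbered 0 for Hs-578T ERK5-ko, 1 for MDA-MB-231 MEK5DD and 0 for Hs-578T MEK5DD against parental, 0 for Hs-578T ERK5-ko against MEK5DD, 1 between the parental lines, and 0 and 2 for the differences of the ERK5-ko and MEK5DD effects. With the libraries of one line only, 1 passed for MDA-MB-231 ERK5-ko and 0 for Hs-578T ERK5-ko and for Hs-578T MEK5DD. With the replicate number as a block, 1 passed for MDA-MB-231 ERK5-ko and 3 for Hs-578T MEK5DD. The block gained TIMP1 in MDA-MB-231 ERK5-ko and MEK5DD, TIMP1 and RECK in Hs-578T MEK5DD and TIMP2 between Hs-578T ERK5-ko and MEK5DD, and it changed no other call of a member. For Hs-578T MEK5DD, 2 passed with median-ratio scaling, with quantile normalization and with limma voom. For the difference of the ERK5-ko effect, 1 passed without the filter and 1 with quantile normalization. Shares of all tested genes are given above for the blocked fits and the fold thresholds in some comparisons only. Elsewhere, these counts cannot be told from settings that pass more or fewer of all genes. This also holds for the counts with one library left out, below.

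Leaving out one library gave 0 to 1 members passing for Hs-578T ERK5-ko, 1 to 2 for Hs-578T MEK5DD, 0 to 2 for the difference of the ERK5-ko effect and 1 to 4 for that of the MEK5DD effect; a group left with 1 library was assumed to vary like the others. Signs turned with median-ratio scaling for TIMP3 in MDA-MB-231 ERK5-ko (0.0115), TIMP2 between the parental lines (0.14) and RECK in the difference of the ERK5-ko effect (-0.0710), and with quantile normalization for RECK in MDA-MB-231 MEK5DD (0.000988) and in that difference (-0.0776). With one library left out, signs turned for TIMP4 in MDA-MB-231 ERK5-ko (-0.0197 to 0.21), TIMP3 in Hs-578T ERK5-ko (-0.20 to 0.0561), RECK between MDA-MB-231 ERK5-ko and MEK5DD (-0.13 to 0.0704), TIMP2 between the parental lines (-0.23 to 0.0425), and TIMP3 (-0.14 to 0.11) and RECK (-0.13 to 0.17) in the difference of the ERK5-ko effect.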
